A study of Homo sapiens with 38 samples.

Results

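The 10 genes described here are targets of the tumour suppressor p53: CDKN1A, GDF15, MDM2, TP53I3, SESN1, BBC3, BAX, FAS, ZMAT3 and RRM2B. They were looked up by symbol in a table of 57133 genes, and were chosen by earlier results of these data, in which the levels of CDKN1A and GDF15 in naive cells differed between both experiments of the study. All 10 passed the filter on low counts that left 16674 genes for testing, FAS only through the late days on which it is highest.

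The data are 3′ mRNA counts from Shef6, a human embryonic stem cell line held in the naive state, which resembles the epiblast before implantation. The cells had been adapted to a serum coating in place of feeder cells and grew in PXGL medium, which combines an inhibitor of MEK (PD0325901), of tankyrase (XAV939) and of protein kinase C (Gö6983) with the cytokine LIF. In experiment 1, naive cells were sampled on serum coating and on Geltrex, a basement membrane matrix. Serum-adapted naive Shef6 cells were plated on Geltrex to differentiate in N2B27, a basal medium without growth factors, in E8 or in mTeSR. Whether they came from the naive cultures sampled is not stated. N2B27 and E8 were sampled on days 2, 3, 4, 6 and 8, and mTeSR on days 4, 6 and 8. Per the study's methods, a ROCK inhibitor, which helps dissociated cells to survive, was present on the day of plating. E8 and mTeSR are commercial media for primed stem cells, which resemble the epiblast after implantation. In experiment 2, naive cells on Geltrex were set beside cells after 4 days in N2B27, in N2B27 with XAV939 (called XAV), or in N2B27 to which XAV939 was added together with Activin A and FGF2 (called FAX). Each of the 19 groups had 2 libraries, 38 in all, from 1 cell line, and every group therefore reflects that line alone. The labels do not say that replicates came from separate cultures, so the p-values measure only the spread between these libraries, which may be technical. The study's legends call them technical replicates in some figures and biological replicates in another. The names of both naive libraries of experiment 2 contain d4, while their titles and time points give day 0. They were used as day 0 here, and their naive and primed markers are given with the naive cells. The names of all 6 naive libraries contain PXGLY, while their titles give PXGL. The labels do not say what the Y stands for.

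Library totals ran from 3038046 to 5612354 counts, with a median of 4427277. Both naive libraries of experiment 2 had fewer genes detected than any other, 21018 and 21759 of a range reaching 25447, and the highest shares of ribosomal protein genes, 11.67% and 11.6% of a range starting at 7.635%. Replicate 1 also had the lowest total, and replicate 2, with 3642536 counts, had the fifth lowest. Levels are given as CPM, each library's counts scaled to a common depth after TMM normalisation (the usual CPM unit), and a count of 3 corresponded to between 0.52 and 1.061 CPM. Differences are log2 fold changes from edgeR's quasi-likelihood test over all 38 libraries, and a gene passed where its p-value, adjusted by the Benjamini-Hochberg method over all 16674 genes, was under 0.05. In such bulk libraries, fewer cells of a type and less RNA per cell cannot be told apart.

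p53 is a transcription factor that is kept low by MDM2, a ubiquitin ligase that marks it for breakdown and is itself a p53 target. DNA damage, nucleolar stress and other insults free p53 from MDM2, and it then binds pairs of decamers near genes for cell cycle arrest, cell death, DNA repair and metabolism. Pluripotent stem cells are known for a p53 that readily leads to death or differentiation, and several of its targets also answer to other factors, GDF15 and SESN family genes to the stress factor ATF4 among them.

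The sites below are matches of letters to the p53 consensus, and whether p53 acts through them was not tested. The p53 full-site consensus, a pair of adjacent decamers with both cores intact, was searched within 2500 bases on each side of every RefSeq gene start on GRCh38 (hg38), on both strands, which are covered together since the motif is a palindrome. With up to 3 mismatches outside the cores it was found near 7 of the 9 genes searched, against 14% of all 27305 genes, and with up to 2 mismatches near 4 of 9, against 2.86%. Each line gives 30 bases of the reference genome in the direction of the gene, with the 20 bases of the site in capitals.
CDKN1A, chr6:36676449-36676468, plus strand: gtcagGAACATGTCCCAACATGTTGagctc
GDF15, chr19:18385308-18385327, plus strand: attgcCATCTTGCCCAGACTTGTCTcgaac
GDF15, chr19:18386186-18386205, plus strand: tgcacAGCCATGCCCGGGCAAGAACtcagg
ZMAT3, chr3:179070188-179070207, minus strand: tcataAAACAAGTCCAGACATGCCTaggca
FAS, chr10:88991309-88991328, plus strand: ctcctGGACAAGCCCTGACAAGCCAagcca
TP53I3, chr2:24085165-24085184, minus strand: gcaccCAGCTTGCCCACCCATGCTCaagat
SESN1, chr6:109009018-109009037, minus strand: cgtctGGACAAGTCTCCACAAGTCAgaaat
BBC3, chr19:47231320-47231339, minus strand: cgcgcCTGCAAGTCCTGACTTGTCCgcggc
The ZMAT3 site had 0 mismatches, as had a site near 32 of the 27305 genes. The CDKN1A site, the upstream GDF15 site and the FAS site had 2 mismatches, and the others had 3. Relative to the nearest RefSeq start, where a negative position is upstream, the CDKN1A site lay at -2265 and overlapped an exon of the annotation. The GDF15 sites lay at -850, in an intron, and at 28, in an exon. The FAS site lay at -122 and the TP53I3 site at -350, both in an exon, the SESN1 site at -49 and the ZMAT3 site at -865, both in an intron, and the BBC3 site at 1328, in an intron. No match was found in the windows of MDM2 and BAX. The search needed both cores intact within these windows, so this does not show that the genes lack a p53 site. A match is a description of the letters, and nothing was measured here about binding.

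The contrast by which the genes were chosen is that of naive cells between the experiments, and it is given as a description with no test. CDKN1A, which encodes the cyclin-dependent kinase inhibitor p21, stood at 11.3 and 9.39 CPM in naive cells on serum and at 18.6 and 17.7 CPM on Geltrex in experiment 1, and at 83.0 and 58.9 CPM in naive cells of experiment 2. The lowest library of experiment 2 was above every naive library of experiment 1, and the log2 difference on Geltrex was 1.96. GDF15, a secreted stress hormone of the TGF-β superfamily, stood at 82.6 and 95.2 CPM on serum, at 121 and 112 CPM on Geltrex, and at 455 and 326 CPM in experiment 2. Its groups did not overlap either, and its log2 difference was 1.75. FAS, a death receptor, had 2, 0, 1 and 0 counts in the naive libraries of experiment 1 and 1 and 3 counts in those of experiment 2. These counts are at the limit of detection, so no fold is given for FAS.

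Without FAS, 2 of the other 9 genes, CDKN1A and GDF15, lay more than 2-fold higher in naive cells of experiment 2 than on Geltrex in experiment 1, where 6.39% of all genes tested did. GDF15 at 1.75 was the gene just inside this limit. Just outside lay SESN1, a stress-inducible regulator of nutrient signalling, at 0.82 and BBC3, which encodes the pro-apoptotic BH3 protein PUMA, at 0.78. All 9 fitted differences were positive, but that of TP53I3, at 0.01, has no clear sign: its mean was 3.06 CPM on Geltrex in experiment 1 and 2.93 CPM in experiment 2. Nothing is read from this count, since the contrast served to choose the genes. SESN1 had 93.1 and 83.2 CPM on Geltrex in experiment 1 and 179 and 134 CPM in experiment 2, and BBC3 had 307 and 296 against 540.2 and 497 CPM. MDM2 and ZMAT3, an RNA-binding splicing regulator, each differed by 0.42, RRM2B by 0.33, BAX by 0.35 and TP53I3 by 0.01. Set against naive cells on serum, the difference was 2.77 for CDKN1A and 2.13 for GDF15, and of the 9 genes TP53I3 and BAX were negative, at -0.30 and -0.14. The SD of log2 CPM between replicates of naive cells was 0.25 for both CDKN1A and GDF15, 0.22 for SESN1, 0.36 for BAX and 0.69 for TP53I3.

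Markers of the naive state were present in both experiments, with the summed CPM of the 6 naive markers between 1333 and 1466 in the naive libraries of experiment 1 and between 1109.5 and 1227 in those of experiment 2. The sum of the 4 primed markers was 18.8 to 24.1 CPM over all 6 naive libraries. The 3 general pluripotency markers summed to 1742 to 1822 CPM in experiment 1 and to 1372 to 1384 CPM in experiment 2. Trophectoderm markers summed to 15.7 to 23.6 CPM in experiment 1 and 18.4 to 22.7 CPM in experiment 2, and amnion markers to 7.1 to 9.8 and 3.6 to 7.2 CPM. Primitive endoderm markers summed to at most 3.1 CPM in any naive library, with GATA4, SOX17 and APOA1 at 0 in experiment 2. The part of the lower pluripotency sum, of the lower depth and of the ribosomal share in the CDKN1A and GDF15 difference was not tested.

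**Figure D1:**
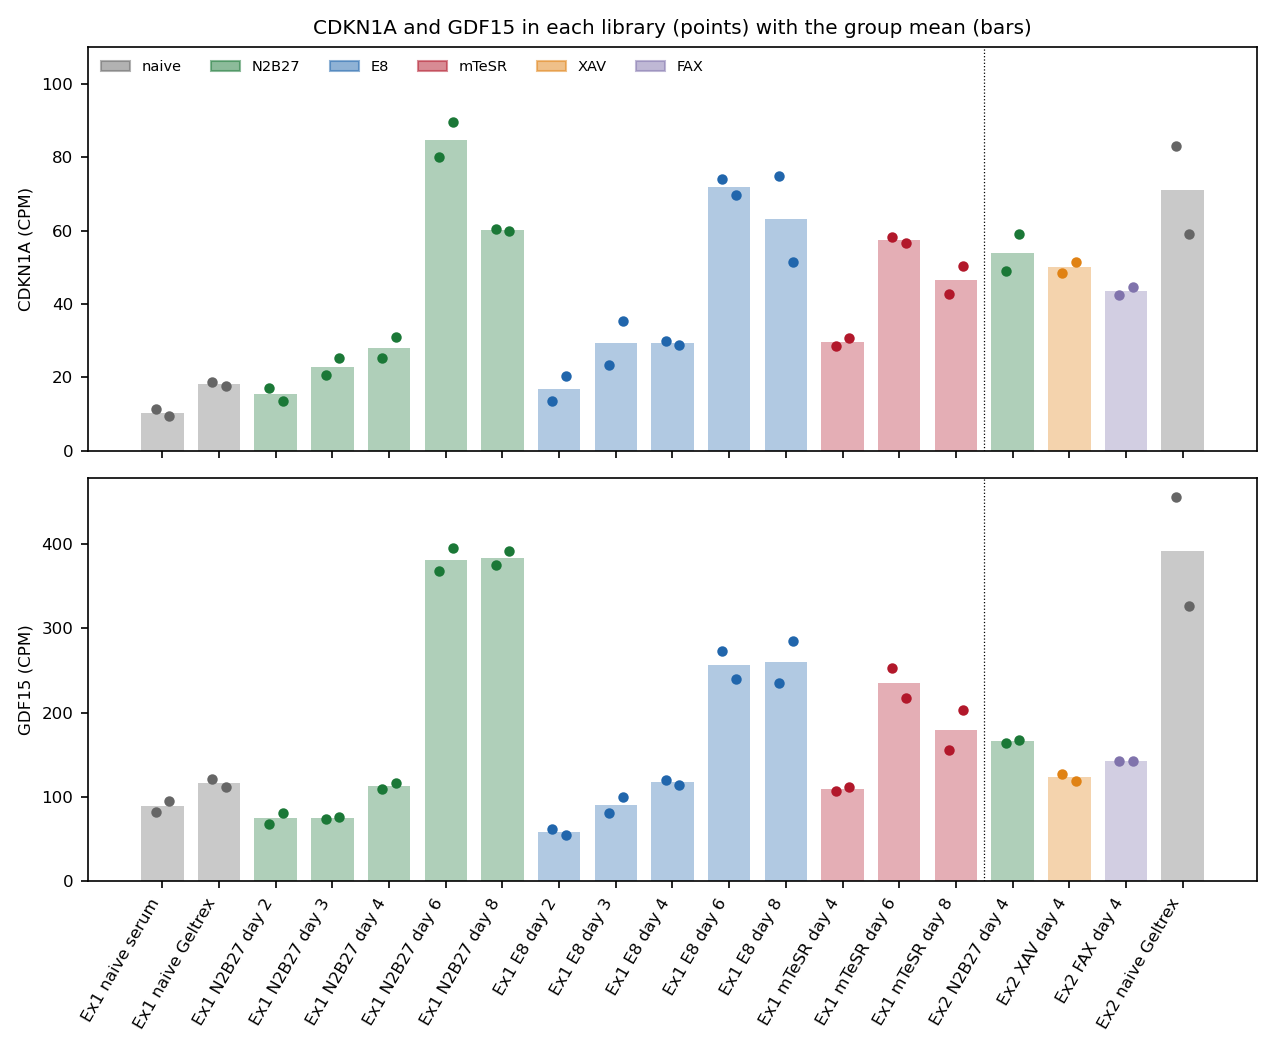
Levels of CDKN1A and GDF15 in CPM (vertical axis) in the 19 groups, with bars for group means and points for the 2 libraries of each; the dotted line separates experiment 1 from experiment 2. Naive cells of experiment 2, at 58.9 and 83.0 CPM for CDKN1A, stand well above the naive cells of experiment 1, at 9.39 to 18.6 CPM, and near the day 6 and day 8 groups.

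Whether the coating itself moved these genes in naive cells was tested within experiment 1, for the 7 genes other than CDKN1A, GDF15 and FAS. CDKN1A and GDF15 have no test here, since these naive libraries served to choose the pair. By edgeR, 0 of the 7 passed between Geltrex and serum, where 0.174% of all genes did, 0 had an unadjusted p under 0.05, and DESeq2 also called 0. As a description, the fitted difference was 0.81 for CDKN1A and 0.39 for GDF15, with both Geltrex libraries of each gene above both serum libraries.

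The experiments could also be compared on day 4 in N2B27, with libraries outside the naive contrast. The genes were chosen with earlier results of these data known, so these tests are not shown to be independent of that choice. CDKN1A had 25.1 and 31.0 CPM in experiment 1 and 49.0 and 59.0 CPM in experiment 2. GDF15 had 109 and 116 CPM in experiment 1 and 164 and 168 CPM in experiment 2. Both genes thus lay higher in both libraries of experiment 2, by 0.95 (SE 0.19, adjusted p = 0.00278) for CDKN1A, a fold of 1.93, and by 0.56 (SE 0.14, adjusted p = 0.0174) for GDF15, a fold of 1.47. They were the 2 of 9 genes, FAS left out, that passed upwards, where 1.78% of all genes did, and 0 passed downwards, where 2.09% did. BBC3, at 349 and 383 CPM in experiment 1 and 469 and 497 CPM in experiment 2, did not pass (0.40, adjusted p = 0.233), but did so with no filter on low counts (0.0284) and with the compared libraries alone (0.000287). The median over the 9 was 0.06. CDKN1A lost its call without replicate 1 of experiment 1 (adjusted p = 0.0778) or replicate 2 of experiment 2 (0.0956), and GDF15 lost it without any 1 of the 4 (0.0844 to 0.155). The experiment and any batch of culture or sequencing cannot be told apart.

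The courses of experiment 1 follow the genes as naive cells leave the naive state, a passage called capacitation. All courses were set against the same 4 naive libraries, both coatings together, so the comparisons share them. For CDKN1A and GDF15 these are also libraries by which the pair was chosen. Their change against naive cells is therefore given as a level and a fold, and their tests are those among days, which use no naive library.

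CDKN1A rose late, and did so in every medium. In N2B27 it had 17.2 and 13.5 CPM on day 2, 20.7 and 25.2 on day 3, 25.1 and 31.0 on day 4, 80.0 and 89.5 on day 6 and 60.4 and 59.8 CPM on day 8. In E8 it had 13.4 and 20.3, 23.2 and 35.3, 29.9 and 28.8, 74.1 and 69.7, and 74.7 and 51.3 CPM on the same days. The 4 day 2 libraries of these media lay above both naive libraries on serum, at 9.39 and 11.3 CPM, while against those on Geltrex, at 17.7 and 18.6 CPM, 3 were below and 1 above. Every library of days 6 and 8 lay above every library of days 2 to 4 in both media. In mTeSR it had 28.5 and 30.6 CPM on day 4, 58.2 and 56.7 on day 6 and 42.6 and 50.4 CPM on day 8. Against naive cells the day 8 levels were 4.38-fold higher in N2B27, 4.62-fold in E8 and 3.39-fold in mTeSR. Days differed in each medium, with a range of log2 means of 2.45 for N2B27 (adjusted p = 3.8e-12), 2.08 for E8 (adjusted p = 6.92e-10) and 0.96 for mTeSR (adjusted p = 0.00128).

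GDF15 was low first and then rose. In N2B27 it had 68.2 and 81.6 CPM on day 2, 74.3 and 76.7 on day 3, 109 and 116 on day 4, 367 and 394 on day 6 and 374 and 391 CPM on day 8. In E8 it had 61.6 and 55.5, 81.2 and 101, 120.3 and 115, 273 and 239.9, and 235 and 285 CPM. In mTeSR it had 107 and 112 CPM on day 4, 253 and 217 on day 6 and 155 and 203 CPM on day 8. The naive libraries had 82.6 to 121 CPM, so day 2 lay below all of them in both media and days 6 and 8 lay above all of them in all 3. On day 8 the fold against naive cells was 3.77 in N2B27, 2.56 in E8 and 1.76 in mTeSR. The range among days was 2.36 for N2B27 (adjusted p = 1.5e-17), 2.15 for E8 (adjusted p = 3.85e-14) and 1.10 for mTeSR (adjusted p = 2.1e-06).

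How high both genes stood over the naive state depended on which naive cells were taken. The day 8 levels of GDF15 in N2B27, 374 and 391 CPM, lay between its naive levels in experiment 2, 326 and 455 CPM. With the naive libraries of both experiments pooled, the day 8 difference in N2B27 was 0.93 for CDKN1A and 0.97 for GDF15, and GDF15 in mTeSR turned to -0.13.

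**Figure D2:**
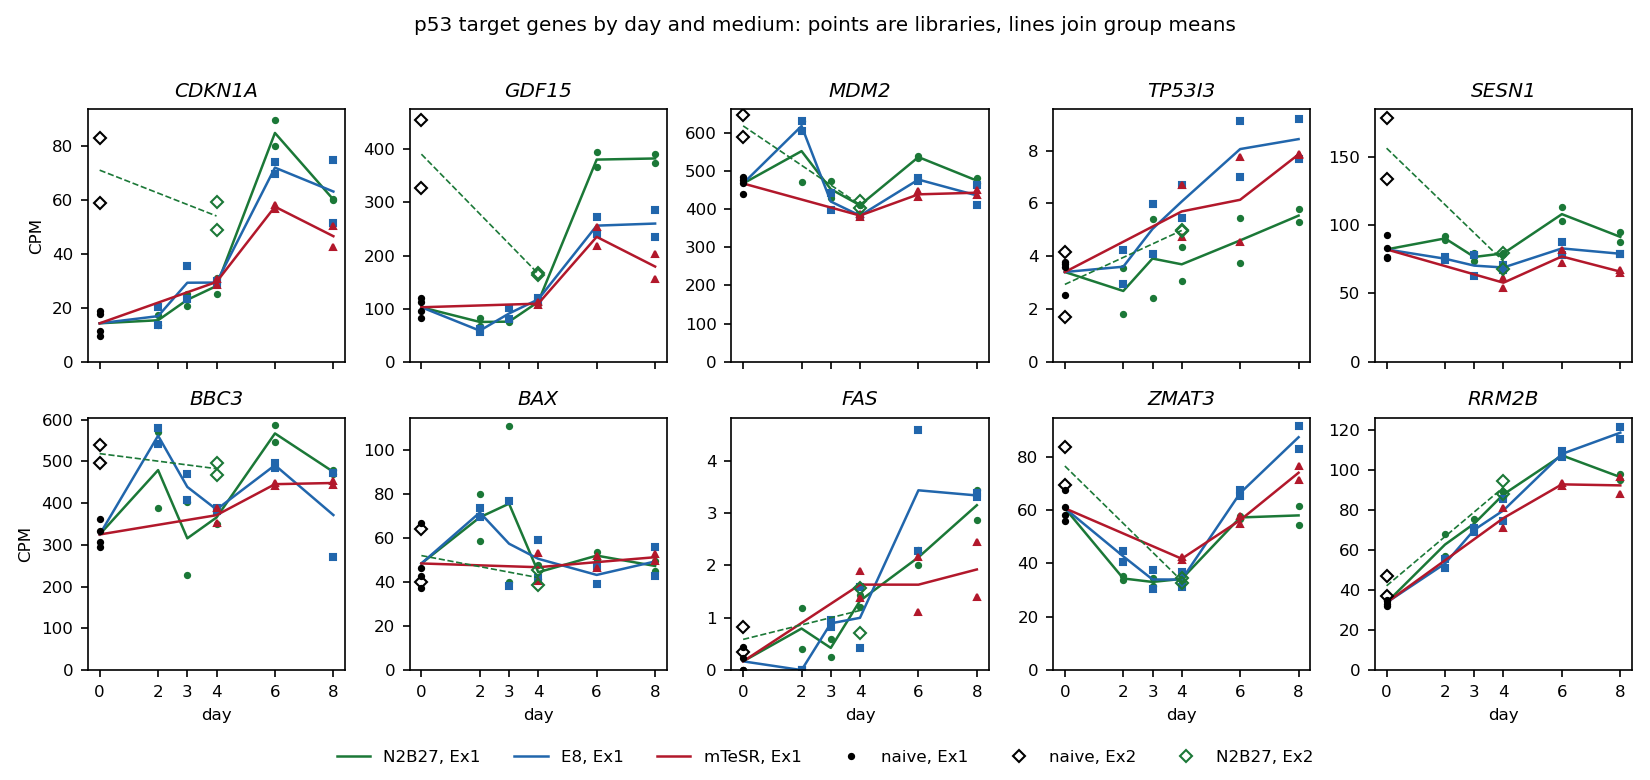
Levels in CPM (vertical axes, 1 panel for each of the 10 genes) by day (horizontal axes), with points for libraries and lines through group means for N2B27, E8 and mTeSR of experiment 1, all from the mean of its 4 naive libraries, and open diamonds joined by a dashed line for naive cells and N2B27 of experiment 2. CDKN1A and GDF15 climb between day 4 and day 6 in all 3 media, while in experiment 2 GDF15 goes down from 326 and 455 CPM to 164 and 168 CPM.

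MDM2, the inhibitor of p53 in their feedback loop, changed little. Its level was 440.4 to 484 CPM in naive cells of experiment 1, 472 and 632 on day 2 in N2B27, 605 and 630.4 on day 2 in E8, 409 and 411 on day 4 in N2B27 and 384 and 382 CPM on day 4 in E8. It rose on day 2 in E8 by 0.40 (adjusted p = 0.000179) and in N2B27 by 0.24 (adjusted p = 0.0238), and lay below naive cells on day 4 in E8 and in mTeSR, with a difference of -0.29 in each (adjusted p = 0.00686 and 0.00772). The E8 call was lost without either E8 library (0.0619 and 0.0670) and the mTeSR call without mTeSR replicate 1 (0.0695). On day 6 in N2B27 it had 533 and 539 CPM, a rise of 0.20 (adjusted p = 0.0458) that lost its call without any 1 of the 6 libraries compared. On day 8 it had 481 and 468 CPM in N2B27, 409.5 and 462 in E8 and 449.8 and 436 CPM in mTeSR, and did not pass in any of them. The N2B27 day 2 rise came from 1 library: without replicate 2 the difference was 0.01 (adjusted p = 0.948). Days differed in N2B27 (range 0.43, adjusted p = 0.00207) and in E8 (0.69, adjusted p = 5.09e-06), not in mTeSR (adjusted p = 0.213).

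SESN1 lay between 75.8 and 93.1 CPM in naive cells of experiment 1, and at 103 and 113 CPM on day 6 in N2B27. That rise was 0.40 (adjusted p = 0.00206), and it lost its call without replicate 2 of that day (0.32, adjusted p = 0.0647). In mTeSR it was at 61.6 and 54.1 CPM on day 4 and 67.3 and 64.6 CPM on day 8, all below every naive library. It fell by 0.50 on day 4 (adjusted p = 0.000595) and by 0.31 on day 8 (adjusted p = 0.0224) there, and the day 8 call was lost in 4 of the 6 fits that left out a library. In E8 no day passed against the 4 naive libraries. Against those on Geltrex alone, it was lower on days 3 and 4 (-0.32 and -0.35, adjusted p = 0.0488 and 0.0263), and with plain library totals in place of TMM scaling on day 2 (-0.28, adjusted p = 0.0478).

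The genes of cell death moved in different ways. BBC3 had 296 to 363 CPM in naive cells of experiment 1, 389 and 569.8 on day 2, 229 and 403 on day 3, 349 and 383 on day 4, 548 and 587 on day 6 and 479 and 471 CPM on day 8 in N2B27. Both libraries of days 6 and 8 lay above every naive library of experiment 1, while day 3 spread from below to above them. The difference was 0.81 on day 6 (SE 0.15, adjusted p = 3.56e-05) and 0.55 on day 8 (adjusted p = 0.00282). With naive libraries of both experiments pooled, it was 0.55 on day 6 (adjusted p = 0.0157) and 0.29 on day 8, which did not pass (0.215). The step from day 2 to 3 was -0.60 (adjusted p = 0.0285), a call lost in 2 of 4 fits that left out a library. In E8 it was highest on day 2, at 581 and 543 CPM (0.79, adjusted p = 6.66e-05), and on day 8 its libraries spread from 272 to 472 CPM and did not pass. BAX, the effector that permeabilises mitochondria, passed in 1 comparison with naive cells, day 3 in N2B27, at 111 and 40.2 CPM (0.64, adjusted p = 0.0418), which DESeq2 did not call (0.0863). Without the first of these libraries the difference was -0.25, and BAX did not pass among days in any medium (adjusted p from 0.0846 to 0.953). With no filter on low counts, however, it passed among days in N2B27 (adjusted p = 9.08e-07) and E8 (0.00321) and against naive cells on day 2 in both and in XAV and FAX, and against naive cells on Geltrex alone it passed on day 2 in both (0.0394 and 0.0259).

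FAS was all but undetected in naive cells and came up to a few counts. In N2B27 it had 2 and 5 counts on day 2, 1 and 3 on day 3, 7 and 8 on day 4, 11 and 10 on day 6 and 13 and 19 counts on day 8, beside 3 counts in the 4 naive libraries together. In E8 it had 0 and 0 on day 2, 19 and 10 on day 6 and 18 and 14 counts on day 8, and in mTeSR 9 and 5 counts on day 8. As a description, the ratio to naive cells on day 8, from summed counts, was 20.2 for N2B27, 21.3 for E8 and 12.3 for mTeSR. With 3 naive counts in all, these ratios are very uncertain. No test is given for FAS, since these late groups alone took it past the filter on low counts. TP53I3, a quinone oxidoreductase, was also low, at 5 to 41 counts in a library. It had 2.53 to 3.76 CPM in naive cells of experiment 1 and 7.68 and 9.18 CPM on day 8 in E8, a rise of 1.31 (SE 0.30, adjusted p = 0.000463). In mTeSR on day 8 it had 7.87 and 7.84 CPM, a rise of 1.22 (adjusted p = 0.00197). In N2B27 on day 8 it had 5.29 and 5.78 CPM, a difference of 0.72 that did not pass (adjusted p = 0.0625), though it did with plain library totals (0.0417) and with naive libraries of both experiments pooled (0.0438).

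ZMAT3 dipped and came back. It had 55.9 to 67.7 CPM in naive cells of experiment 1, and in N2B27 33.6 and 35.1 CPM on day 2, 34.7 and 31.4 on day 3, 33.3 and 35.1 on day 4, 56.7 and 57.8 on day 6 and 61.7 and 54.4 CPM on day 8. It fell by 0.82 on day 2 (SE 0.11, adjusted p = 6.28e-07), and on day 8 1 library was within the naive range and 1 just under it. In E8 it fell to 36.8 and 31.2 CPM on day 4 (-0.84, adjusted p = 1.92e-07) and then passed the naive level, at 91.6 and 83.1 CPM on day 8 (0.53, SE 0.10, adjusted p = 3.61e-05). Days differed in all 3 media, with an adjusted p of 1e-07 for N2B27, 1.87e-11 for E8 and 4.29e-05 for mTeSR.

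RRM2B, the p53-inducible small subunit of ribonucleotide reductase, was higher than in naive cells from the first day measured. It had 32.1 to 35.2 CPM in naive cells of experiment 1 and, in N2B27, 68.2 and 57.2 CPM on day 2, 75.3 and 71.1 on day 3, 86.7 and 88.9 on day 4, 107 and 107 on day 6 and 94.7 and 98.1 CPM on day 8. Its N2B27 libraries were lower on day 8 than on day 6, while in E8 it went from 55.5 and 50.9 CPM on day 2 to 122 and 116 CPM on day 8, and in mTeSR it had 92.0 and 93.5 CPM on day 6 and 96.4 and 88.1 CPM on day 8. Every library off the naive state lay above every naive library of experiment 1, and all 13 comparisons with naive cells passed. The rise on day 8 was 1.51 in N2B27 (adjusted p = 8.73e-15), 1.81 in E8 (SE 0.10, adjusted p = 5.16e-17) and 1.45 in mTeSR (adjusted p = 5.6e-14). It was the one of the 7 genes tested against naive cells that passed upwards in all 16 comparisons with naive cells of the same experiment.

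Read together, the genes did not move as 1 block. The counts against naive cells that follow are over 7 of them, without CDKN1A and GDF15, whose naive libraries served to choose the pair, and without FAS. On day 2 in N2B27, 3 of the 7 passed upwards (BBC3, MDM2, RRM2B), where 20.0% of all genes did, and ZMAT3 downwards, where 16.5% did. Without replicate 2 of that day BBC3 (0.26, adjusted p = 0.338) and MDM2 lost their calls, which left 1 of the 7, as did pooling naive libraries of both experiments. On day 4, RRM2B passed upwards, where 21.4% did, and ZMAT3 downwards, where 16.5% did. On day 6, 4 passed upwards (BBC3, MDM2, RRM2B, SESN1), where 28.4% of all genes did, and 0 downwards, where 22.7% did. Without replicate 2 of day 6, or with naive libraries pooled, BBC3 and RRM2B were left, 2 of the 7. On day 8, 2 passed upwards (BBC3, RRM2B), where 27.9% did, and 0 downwards, where 23.2% did. With naive libraries pooled, BBC3 did not pass (0.29, adjusted p = 0.215), while TP53I3 did (0.0438) beside RRM2B. The 2 of 7 on day 8 is near the share of all genes.

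In E8 on day 2, BBC3, MDM2 and RRM2B passed upwards, 3 of 7 where 25.8% of all genes did, and ZMAT3 downwards, where 23.2% did. On day 8 in E8, 3 passed upwards (RRM2B, TP53I3, ZMAT3), where 29.7% did, and 0 downwards, where 25.0% did. On day 8 in mTeSR, 4 passed upwards (these and BBC3), where 27.8% did, and SESN1 downwards, where 23.4% did. With naive libraries of both experiments pooled, BBC3 (adjusted p = 0.392) and ZMAT3 (0.247) did not pass there. Without mTeSR replicate 2 of day 8, BBC3 (adjusted p = 0.0730), ZMAT3 (0.196) and SESN1 (0.132) lost their calls, which left 2 upwards and 0 downwards. ZMAT3 lost its call there in 3 of 6 fits that left out a library and with no filter (0.236). Among days, with no naive library and without FAS, 7 of 9 differed in N2B27, all but TP53I3 and BAX, where 51.5% of all genes did, and 7 in E8, all but SESN1 and BAX, where 53.3% did. The TP53I3 call in E8 (adjusted p = 0.0435) was lost in 9 of 10 fits that left out a library and by DESeq2 (0.373), and DESeq2 also did not call BBC3 and SESN1 in N2B27 (0.143 and 0.0720). With plain library totals BBC3 did not pass in E8 (0.0945). In mTeSR, which has 3 days, CDKN1A, GDF15 and ZMAT3 differed, where 19.4% of all genes did.

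**Figure D3:**
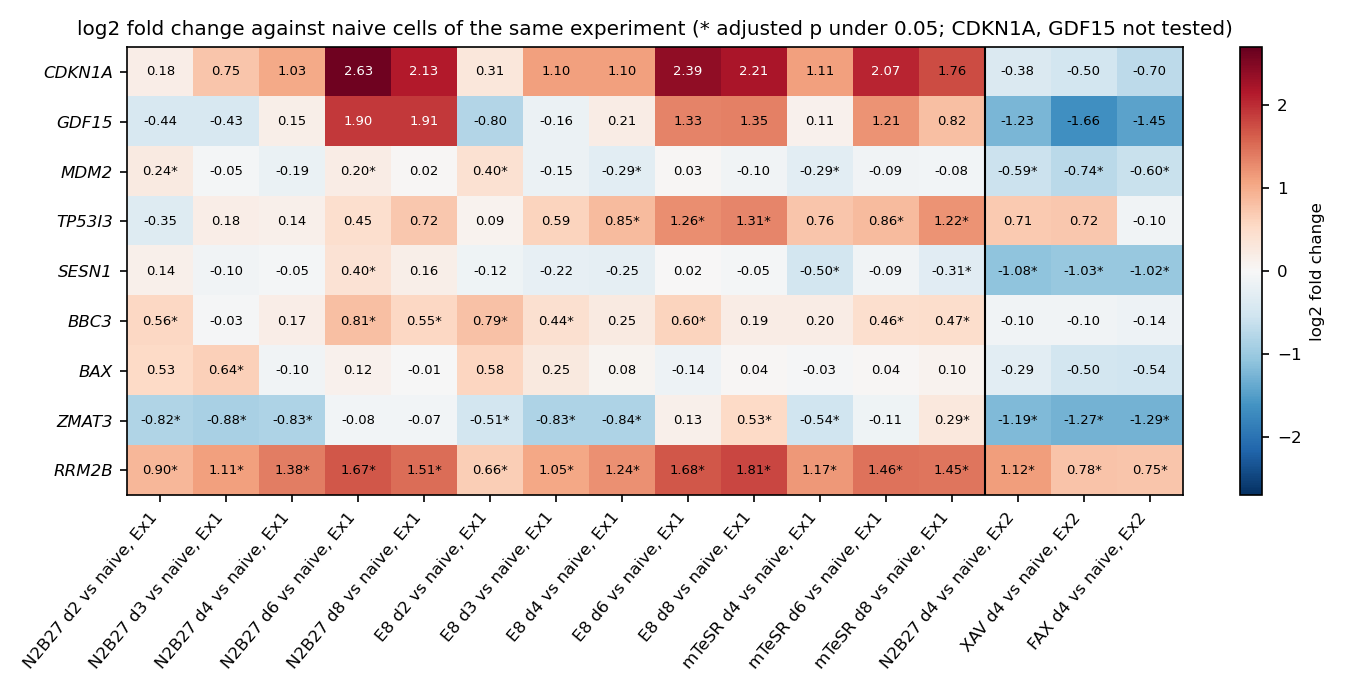
Log2 fold changes (colour) of 9 genes, without the nearly undetected FAS, in 16 comparisons with naive cells of the same experiment; an asterisk marks an adjusted p under 0.05 for the 7 genes tested, and CDKN1A and GDF15 are shown as levels with no test, since naive libraries chose them. RRM2B is positive in every column, and ZMAT3 negative on days 2 to 4 in every column.

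The step from day 4 to day 6 carried most of the late rise, and it uses no naive library. CDKN1A rose by 1.59 in N2B27 (SE 0.18, adjusted p = 2.29e-07), a fold of 3.02. Its rise was 1.29 with E8 (adjusted p = 1.8e-05) and 0.96 with mTeSR (adjusted p = 0.00104). GDF15 rose by 1.76 in N2B27 (SE 0.14, adjusted p = 8.92e-11), a fold of 3.38, while its rise was 1.13 with E8 (adjusted p = 1.33e-06) and 1.10 with mTeSR (adjusted p = 1.6e-06). In all 3 media both libraries of day 6 lay above both libraries of day 4 for both genes. For ZMAT3 the rise was 0.74 with N2B27 (adjusted p = 9.76e-05), 0.97 with E8 (adjusted p = 4.03e-06) and 0.43 with mTeSR (adjusted p = 0.0278).

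In N2B27, 6 of 9 genes, FAS left out, passed upwards at this step (BBC3, CDKN1A, GDF15, MDM2, SESN1, ZMAT3), where 7.47% of all genes did. In E8, 5 did (CDKN1A, GDF15, MDM2, RRM2B, ZMAT3), where 4.80% of all genes did. In mTeSR, 4 did (CDKN1A, GDF15, SESN1, ZMAT3), where 5.38% of all genes did, though SESN1 had not passed among days there (adjusted p = 0.0586). The median difference over the 9 was 0.45 in N2B27, 0.41 in E8 and 0.29 in mTeSR, beside 0.03, 0.02 and 0.02 over all genes. The calls of CDKN1A and GDF15 in all 3 media, and of ZMAT3 in N2B27 and E8, held whichever library was left out. Of the others, BBC3, MDM2 and SESN1 in N2B27 and RRM2B in E8 each lost theirs in 3 of 4 fits that left out a library, and MDM2 in E8 and SESN1 and ZMAT3 in mTeSR in 4 of 4. With no filter on low counts 5, 3 and 2 genes were left in the 3 media, and DESeq2 called 6, 5 and 2. From day 6 to day 8, 0 of the 9 passed in any medium with the filter and scaling used here. Over all genes, 2.21% passed upwards and 1.37% downwards in N2B27, 1.22% and 1.28% in E8, and 1.21% and 1.02% in mTeSR. The 0 of 9 is near these shares. In E8, BBC3 passed downwards with no filter (-0.41, adjusted p = 0.0225) and ZMAT3 upwards when genes needed over 10 counts in 2 libraries to be kept (0.42, adjusted p = 0.0498), as both did without E8 replicate 2 of day 8. DESeq2 called 0, while at an unadjusted p under 0.05 there was 1 downwards in each medium and 1 upwards in E8 and in mTeSR.

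Markers of other cells moved over the same days. Primitive endoderm markers summed to 4.7 to 5.4 CPM on day 4 in N2B27, 23.1 to 27.6 on day 6 and 109 to 117 CPM on day 8. In E8 they summed to 7.3 to 9.2 CPM on day 6 and in mTeSR to 10.6 to 14.2 CPM. At the step from day 4 to 6, 2 of the 4 primitive endoderm markers passed upwards in N2B27 (SOX17, PDGFRA), 0 in E8 and 1 in mTeSR. Fibroblast markers went up at this step in all 3 media, from 92.3 to 98.3 CPM to 165.6 to 171.5 CPM in N2B27, from 70.2 to 80.5 CPM to 131 to 132 CPM in E8 and from 78.4 to 85.0 CPM to 135 to 137 CPM in mTeSR. The sum was carried by COL1A1 and COL1A2, which passed in each medium, with DCN and LUM at most at 0.683 and 1.10 CPM in any library. Trophectoderm markers summed to 32.1 to 34.6 CPM on day 4 and 33.1 to 35.7 CPM on day 6 in N2B27, to 32.3 to 34.5 and 42.7 to 47.1 CPM in E8 and to 33.6 to 34.5 and 32.1 to 35.3 CPM in mTeSR, and on day 8 to 75.5 to 92.1 CPM in N2B27 and 24.4 to 25.4 CPM in E8. By day 8 all 6 naive markers were lower and all 4 primed markers higher in each medium. The part of these cells in the rise was not tested.

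In experiment 2, CDKN1A and GDF15 had lower means after 4 days than in its naive cells, and here too the comparisons share the 2 naive libraries by which the pair was chosen. CDKN1A had 83.0 and 58.9 CPM in naive cells, 49.0 and 59.0 CPM in N2B27, 48.5 and 51.4 CPM in XAV and 42.5 and 44.5 CPM in FAX on day 4. GDF15 went from 455 and 326 CPM to 164 and 168 CPM in N2B27, 128 and 119 CPM in XAV and 143 and 143 CPM in FAX, so that every differentiated library lay below both naive ones. The folds were 2.35, 3.16 and 2.73 lower for GDF15. Against the naive cells of experiment 1, a comparison added after the data were seen, GDF15 on day 4 was higher, by 0.71 in N2B27, 0.28 in XAV and 0.49 in FAX. CDKN1A was higher there too, by 1.98, 1.87 and 1.67. The direction thus depended on which naive cells were taken.

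SESN1 went from 179 and 134 CPM to 79.5 and 67.8 CPM in N2B27, 73.0 and 79.7 in XAV and 79.5 and 74.5 CPM in FAX. It fell by 1.08 in N2B27 (SE 0.13, adjusted p = 2.32e-08), by 1.03 in XAV (adjusted p = 4.97e-08) and by 1.02 in FAX (adjusted p = 7.64e-08). Against naive cells of experiment 1 these differences were -0.16, -0.10 and -0.09 and did not pass. The calls thus depended on which naive cells were taken. The naive libraries of experiment 2 belong to the contrast by which the genes were chosen. P-values against them are not independent of that choice. MDM2 went from 648 and 588 CPM to 420.3 and 402 CPM in N2B27, and fell by 0.59 (adjusted p = 1.21e-05), 0.74 (adjusted p = 3.09e-07) and 0.60 (adjusted p = 9.54e-06) in N2B27, XAV and FAX. Against naive cells of experiment 1, MDM2 differed by -0.18, -0.33 and -0.19, with XAV alone passing (adjusted p = 0.00228).

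ZMAT3 and RRM2B passed in the same direction on day 4 in all 3 conditions whichever naive cells were used. ZMAT3 went from 83.7 and 69.4 CPM to 34.4 and 32.6 CPM in N2B27, 32.8 and 30.5 in XAV and 31.3 and 31.2 CPM in FAX, and fell by 1.19 in N2B27 (adjusted p = 5.7e-09), by 1.27 in XAV (adjusted p = 1.12e-09) and by 1.29 in FAX (adjusted p = 1.37e-09). RRM2B went from 47.1 and 37.1 CPM to 94.6 and 88.0 CPM in N2B27, 72.4 and 71.1 in XAV and 72.1 and 68.4 CPM in FAX. It rose by 1.12 in N2B27 (SE 0.12, adjusted p = 4.99e-09), by 0.78 in XAV (adjusted p = 4.79e-06) and by 0.75 in FAX (adjusted p = 1.09e-05). Against naive cells of experiment 1 the 3 differences were -0.86, -0.94 and -0.95 for ZMAT3 and 1.43, 1.09 and 1.06 for RRM2B, all of which passed.

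The counts for experiment 2 are again over these 7 genes. They use naive libraries of the contrast by which the genes were chosen, and are given as a description. In N2B27, RRM2B passed upwards, where 21.5% of all genes did, and 3 downwards (MDM2, SESN1, ZMAT3), where 19.4% did. In XAV, RRM2B passed upwards, where 20.5% did, and the same 3 symbols downwards, where 18.2% did. In FAX, RRM2B passed upwards, where 21.1% did, and these 3 downwards, where 19.4% did. BBC3, BAX and TP53I3 passed in none of the 3 with the filter on low counts. Against naive cells of experiment 1, BBC3 passed upwards in all 3, by 0.57 in N2B27 (adjusted p = 0.00294), 0.58 in XAV (adjusted p = 0.00267) and 0.54 in FAX (adjusted p = 0.00529).

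Adding XAV939, or FGF2 and Activin A with it, to N2B27 left no difference that passed among the 9 genes other than FAS on day 4. Between XAV and N2B27, 0 of 9 passed, where 1.34% of all genes did, and between FAX and N2B27 0 of 9, where 0.846% did. GDF15 differed by -0.43 (95% interval -0.71 to -0.14, adjusted p = 0.164) and RRM2B by -0.35 (-0.57 to -0.12, adjusted p = 0.160) in XAV, and CDKN1A by -0.11 (-0.48 to 0.25). For GDF15 and RRM2B both libraries with XAV939 lay below both libraries without it, and these intervals leave out 0, so the missed threshold does not show that the media act alike. At an unadjusted p under 0.05, 2 of the 9 were lower in XAV and 1 in FAX, and DESeq2 also called 0. Fitted on the compared libraries alone, GDF15 (-0.44) and RRM2B (-0.36) passed in XAV and RRM2B (-0.38) in FAX. Between FAX and XAV no gene of the 9 passed, where 0.012% of all genes passed upwards and 0% downwards. GDF15 was at 0.21 there (-0.07 to 0.49).

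The media of experiment 1 differed for GDF15 above all. In these comparisons too FAS was left out. On days 2, 3 and 4, 0 of the 9 genes passed between E8 and N2B27, where 13.7%, 6.06% and 7.93% of all genes did. At an unadjusted p under 0.05, 2 did on day 2, 1 on day 3 and 0 on day 4. With plain library totals in place of TMM, GDF15, RRM2B and SESN1 passed on day 2 (adjusted p = 0.0333, 0.0415 and 0.0435), and with no filter BBC3 passed on day 3 (0.00242). On day 6, GDF15 had 273 and 239.9 CPM in E8 and 253 and 217 CPM in mTeSR, all below the 367 and 394 CPM of N2B27, and on day 8 the mTeSR libraries, at 155 and 203 CPM, were below those of E8, at 235 and 285 CPM, and of N2B27, at 374 and 391 CPM. Its difference between E8 and N2B27 was -0.57 on day 6 (95% interval -0.84 to -0.30, adjusted p = 0.00275) and -0.56 on day 8 (adjusted p = 0.00262). Between mTeSR and N2B27 the difference was -0.70 on day 6 (adjusted p = 0.000804) and -1.10 on day 8 (-1.37 to -0.82, adjusted p = 1.15e-06), and between mTeSR and E8 it was -0.54 on day 8 (adjusted p = 0.00686). The difference between mTeSR and N2B27 on day 8 passed whichever library was left out, while the others did not: E8 against N2B27 without E8 replicate 2 on day 6 (adjusted p = 0.0912) or replicate 1 on day 8 (0.0682), mTeSR against N2B27 on day 6 without mTeSR replicate 2 (0.0526), and mTeSR against E8 without E8 replicate 2 (0.0626) or mTeSR replicate 1 (0.151).

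Over the 5 shared days, the course of GDF15 differed between E8 and N2B27 (interaction test, adjusted p = 0.00685), with its log2 difference between the media ranging over 0.84 among days. It was the only 1 of the 9 that passed, where 11.0% of all genes did. The interaction of CDKN1A did not pass (adjusted p = 0.510), nor did that of ZMAT3 (0.0832), BBC3 (0.108) or RRM2B (0.114), though with no filter on low counts BBC3 passed (5.98e-05). Without a single library the GDF15 value ran from 0.00317 to 0.0202.

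Other members differed between media as well. On day 6 in E8, GDF15 and SESN1 were the 2 of 9 lower than in N2B27, where 8.20% of all genes were. On day 8, RRM2B and ZMAT3 were the 2 of 9 higher in E8, where 9.57% were, and GDF15 was lower, where 9.69% were. ZMAT3 had 91.6 and 83.1 CPM in E8 and 61.7 and 54.4 CPM in N2B27 on day 8, a difference of 0.59 (95% interval 0.36 to 0.83, adjusted p = 0.000423) that passed whichever library was left out, and RRM2B differed by 0.30 (adjusted p = 0.0471), a call lost without any 1 of the 4 libraries. In mTeSR, CDKN1A, GDF15 and SESN1 were lower than in N2B27 on day 6, 3 of 9 where 4.41% of all genes were, and GDF15 and SESN1 on day 8, 2 of 9 where 5.22% were. CDKN1A on day 6 differed by -0.56 (adjusted p = 0.0361), a call lost without any 1 of the 4 libraries. SESN1 differed by -0.46, -0.49 and -0.47 on days 4, 6 and 8 (adjusted p = 0.0335, 0.0111 and 0.0146), with mTeSR libraries below N2B27 libraries each time, and each of these calls was lost without at least 1 library. The SESN1 call between E8 and N2B27 on day 6 (-0.38, adjusted p = 0.0332) was lost in 3 of 4 such fits, by DESeq2 (0.0603) and with no filter (0.137). On day 8, GDF15 and RRM2B were lower in mTeSR than in E8, 2 of 9 where 6.82% of all genes were, with a difference of -0.36 for RRM2B (adjusted p = 0.0235) that did not pass without E8 replicate 1 or mTeSR replicate 2. With the compared libraries alone, BBC3 and MDM2 also passed on day 6, lower in E8 (adjusted p = 0.0211 and 0.0428) and in mTeSR (0.00251 and 0.00957) than in N2B27. That fit also called CDKN1A lower in mTeSR than in N2B27 on day 8 (0.0488) and than in E8 on day 6 (0.0258), and did not call GDF15 or RRM2B between mTeSR and E8 on day 8 (0.0676 and 0.134). With no filter, BBC3 was lower in E8 than in N2B27 on day 8 (0.0209).

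**Figure D4:**
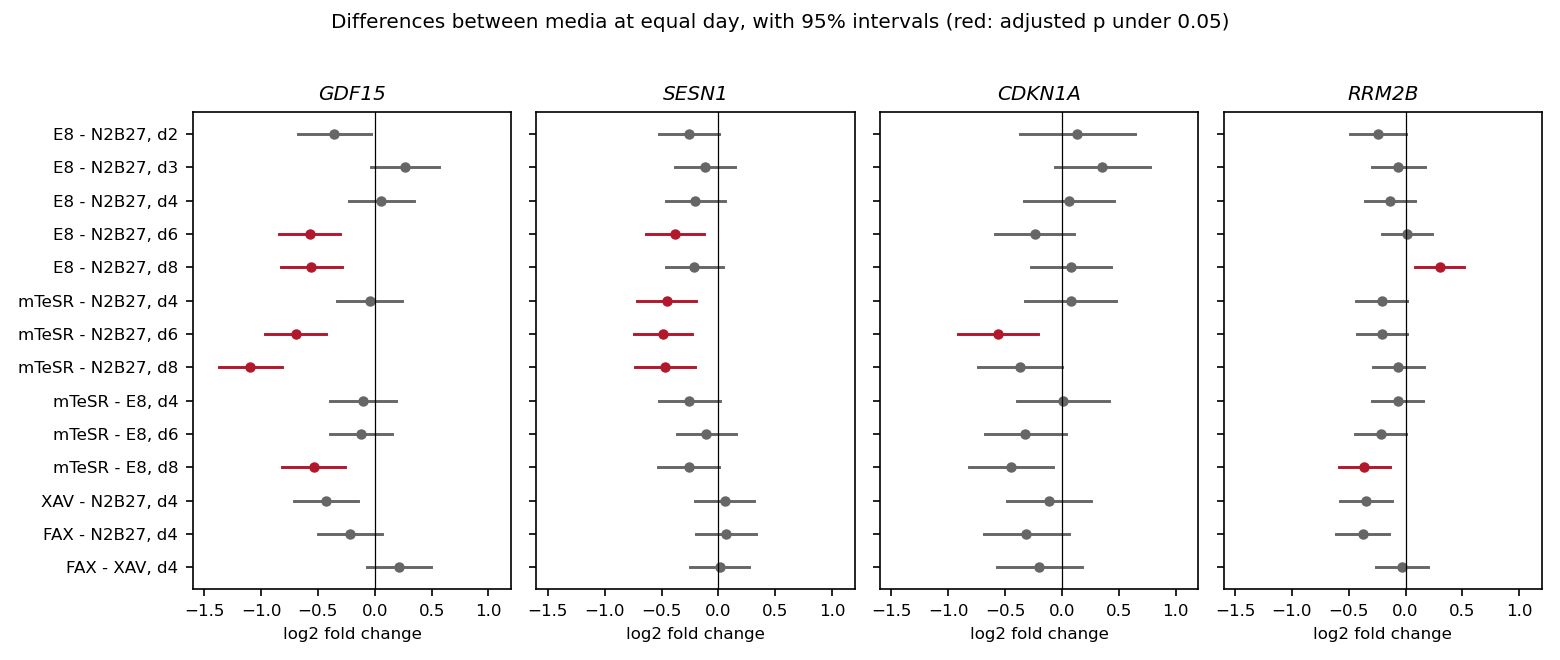
Log2 differences between media at a shared day (14 comparisons) for GDF15, SESN1, CDKN1A and RRM2B, with points for the fitted difference, bars for its 95% interval and red where the adjusted p was under 0.05. GDF15 moves away from 0 on days 6 and 8, to -1.10 between mTeSR and N2B27 on day 8, while most CDKN1A intervals cross 0.

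The levels of each gene were ordered over the 19 groups as a description. CDKN1A was highest on day 6 in N2B27, at 84.7 ± 6.7 CPM (SD, n = 2), followed by E8 day 6 at 71.9 ± 3.2 and naive cells of experiment 2 at 71.0 ± 17.0 CPM, and lowest in naive cells on serum at 10.3 ± 1.3 CPM. The library ranges of 13 of its 18 neighbouring pairs in this order overlapped. GDF15 was highest in naive cells of experiment 2, at 391 ± 91 CPM, with N2B27 day 8 at 383 ± 12 and day 6 at 381 ± 19.3 CPM, and lowest on day 2 in E8 at 58.5 ± 4.3 CPM, with 11 of 18 neighbouring pairs overlapping. Naive cells of experiment 2 also held the highest mean of MDM2, 618 ± 42.1 CPM, next to E8 day 2 at 618 ± 18.0 CPM, and of SESN1, 156 ± 31.4 CPM, ahead of N2B27 day 6 at 108 ± 7.0 CPM. The highest ZMAT3 group was E8 day 8 at 87.4 ± 6.0 CPM, with naive cells of experiment 2 next, at 76.6 ± 10.1 CPM. RRM2B was highest on day 8 in E8, at 119 ± 4.2 CPM, and lowest in naive cells on Geltrex of experiment 1, at 33.3 ± 1.7 CPM. BBC3 was highest on day 6 in N2B27, at 567 ± 27.8 CPM. For BAX all 18 neighbouring pairs overlapped, and for TP53I3 and FAS 17 of 18.

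Across the group means, CDKN1A and GDF15 went together with a Pearson r of 0.87 (n = 19 groups, which share media, days and experiments, and hold the naive groups by which the pair was chosen). MDM2 and SESN1 had an r of 0.70, while CDKN1A and MDM2 had -0.07 and GDF15 and MDM2 0.15. The lists that follow draw on the same naive groups. Among genes with a mean of at least 10 CPM, those most like CDKN1A over the 19 groups were PRPS1, PIFO, ELP2, STK32C and HABP4, with r from 0.90 to 0.91. Those most like GDF15 were RHOU, BTG2, TOMM20, CHMP2A and AC079781.5, with r from 0.90 to 0.92. Those most like MDM2 were FAM234A, SPG11, EIF3D, EPB41 and LRRC75A-AS1, with r from 0.83 to 0.88. The median r over all such genes was -0.06, -0.05 and -0.03.

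A list of 34 other p53 targets was counted beside the 10, with the same naive libraries. In naive cells, 29 of the 34 were higher in experiment 2 on Geltrex, with a median of 0.51 beside 0.00 over all genes, given with no test. BTG2, an antiproliferative factor, had 8.48 to 10.5 CPM in naive cells on Geltrex of experiment 1 and 23.5 to 31.4 CPM in experiment 2, and GADD45A, a growth arrest and DNA damage gene, 17.5 to 22.2 and 45.9 to 71.7 CPM. PMAIP1, which encodes the BH3 protein NOXA, had 70.0 to 75.9 CPM and 76.4 to 83.0 CPM. So BTG2 and GADD45A stood apart between the experiments as CDKN1A did, while the PMAIP1 ranges lay next to each other.

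In the N2B27 course of experiment 1, 12 of the 34 passed upwards and 3 downwards on day 2, 14 and 5 on day 4, 20 and 3 on day 6, and 19 and 4 on day 8. Over all genes, 20.0% passed upwards and 16.5% downwards on day 2, 21.4% and 16.5% on day 4, 28.4% and 22.7% on day 6 and 27.9% and 23.2% on day 8. The median difference was 0.09 on day 2, 0.22 on day 4, 0.51 on day 6 and 0.41 on day 8, beside medians over all genes of at most 0.04. On day 8 in N2B27, 6 of 7 arrest genes passed upwards and 0 downwards, with a median of 1.53. Of 11 genes of death and survival, 7 passed upwards and 0 downwards, with a median of 0.63. Of 9 genes of metabolism and autophagy, 2 passed upwards and 1 downwards, with a median of 0.11, of 4 DNA repair genes 2 each way, and of 3 feedback genes 2 upwards and 1 downwards. PMAIP1 rose to 295 to 299 CPM on day 8 in N2B27 (2.27, adjusted p = 1.53e-21), GADD45A to 138 to 141 CPM (3.03, adjusted p = 1.85e-18), and CCNG1, cyclin G1, to 131 to 141 CPM (1.33, adjusted p = 7.31e-12). On day 8, 22 passed upwards and 4 downwards in E8, where 29.7% and 25.0% of all genes did, and 20 and 5 in mTeSR, where 27.8% and 23.4% did.

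At the step from day 4 to 6 in N2B27, 15 of the 34 passed upwards and 1 downwards, with a median of 0.51. Over all genes, 7.47% passed upwards and 5.04% downwards. BTG2 went from 7.28 to 8.96 CPM on day 4 to 26.5 to 28.8 CPM on day 6 (1.77, adjusted p = 3.32e-06). In E8, 11 passed upwards and 0 downwards, where 4.80% and 2.05% of all genes did. For mTeSR the counts were 7 and 0, where 5.38% and 3.45% did. Against its own naive cells, experiment 2 had 6 of the 34 passing upwards and 15 downwards in N2B27, 6 and 14 in XAV, and 5 and 17 in FAX, where between 20.5% and 21.5% of all genes passed upwards and between 18.2% and 19.4% downwards. In N2B27 there, 4 of 7 arrest genes rose and 2 fell, and 0 of 9 metabolism and autophagy genes rose and 7 fell. BTG2 fell to 6.25 to 8.32 CPM (-1.90, adjusted p = 3.61e-07), while PMAIP1 rose to 173 to 175 CPM (1.13, adjusted p = 1e-10).

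**Figure D5:**
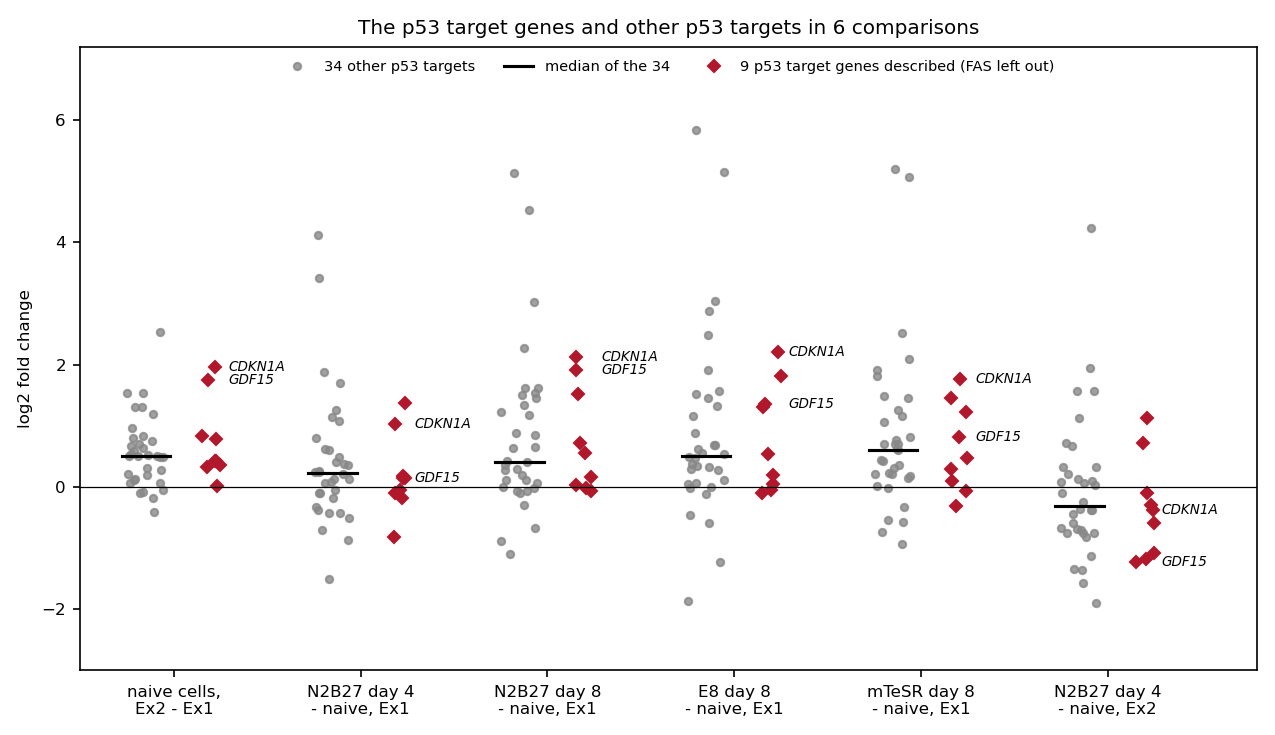
Log2 differences (vertical axis) of 34 other p53 targets (grey points, with their median) and of the 9 genes other than FAS in 6 comparisons. The medians of the other targets are 0.51 between naive cells of the experiments and 0.41 on day 8 in N2B27, and -0.31 on day 4 in N2B27 against naive cells of experiment 2.

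MDM4, the partner of MDM2 in holding p53 down, fell by 0.35 on day 8 in N2B27 (adjusted p = 0.00365). Of the 9 regulators of p53 tested, 4 passed upwards and 2 downwards on day 8 in N2B27, 3 and 2 in E8 and 3 and 1 in mTeSR, beside the shares over all genes given above (27.9% and 23.2%, 29.7% and 25.0%, 27.8% and 23.4%), and 0 passed between the experiments on day 4 in N2B27. At the step from day 4 to 6, 1 of the 9 passed, upwards, in N2B27, 0 in E8 and 1 in mTeSR, where 7.47%, 4.80% and 5.38% of all genes passed upwards.

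Among 13 cell cycle genes that are repressed through p21 and the DREAM complex, 2 passed upwards and 5 downwards on day 8 in N2B27, 1 and 7 in E8 and 0 and 8 in mTeSR, where 23.2%, 25.0% and 23.4% of all genes passed downwards, and 4 of 13 were higher in naive cells of experiment 2 (median -0.08). Of 10 ATF4 targets, 7 passed upwards and 0 downwards on day 8 in N2B27, where 27.9% of all genes passed upwards, 4 and 0 at the step from day 4 to 6 there, where 7.47% did, and 9 were higher in naive cells of experiment 2 (median 0.36). Their part in the GDF15 levels was not tested.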

How the data were processed

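RNA from 38 libraries was counted by 3′ mRNA sequencing (QuantSeq). Per the labels and the study's methods, the authors used the nf-core RNA-seq pipeline with FastQC 0.11.9, STAR 2.7.10a and Salmon 1.9.0 on hg38, and deposited raw counts per gene, 57133 rows, with no normalization. Counts from 3′ tags do not depend on transcript length, and levels were not compared between genes. Genes were filtered with edgeR's filterByExpr (16674 kept, 99.65% of counts), scaled by TMM and fitted over 19 groups with edgeR 4.0.16 (quasi-likelihood F test) in R 4.3.3. P-values were adjusted by Benjamini-Hochberg within a comparison. Days were tested by an F test over all days of a medium, and steps between days by their own contrasts. Naive cells of both experiments were compared with no test, as were CDKN1A and GDF15 with naive cells, and FAS was not tested. The floor was set at 3 counts, which is 0.52 to 1.061 CPM in libraries of 3038046 to 5612354 counts. Data were simulated for N2B27 day 8 against naive cells of experiment 1 (15813 genes). There, 79.1% of 2-fold and 41.8% of 1.5-fold changes were recovered, with 8 false calls of 155. The simulation changed 67 genes at each of these folds, while 27.9% of all genes passed upwards and 23.2% downwards in the data. The recovery in the simulation may thus not hold for the data. The members and lists were chosen with earlier results of these data known. Named were all 10 members, at most 5 leading genes of a list in a comparison, and 5 genes most like CDKN1A, GDF15 and MDM2. Sites were searched in the RefSeq annotation of GRCh38. DESeq2 1.42.0 was an alternative, as were other scalings, filters, naive libraries and left-out libraries.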

Additional observations from a re-analysis of the deposited data

Results flagged for a closer look

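The course of GDF15 over days 2, 3, 4, 6 and 8 differed between E8 and N2B27, by edgeR's test of the interaction of medium and day (adjusted p = 0.00685). On day 2 GDF15 was at 61.6 and 55.5 CPM in E8 and 68.2 and 81.6 CPM in N2B27, and on day 8 at 235 and 285 CPM in E8 and 374 and 391 CPM in N2B27.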

How the results depend on the processing

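Of 110 calls on the genes with a test, which leave out FAS throughout and CDKN1A and GDF15 against naive cells, 68 held whichever library was left out. Requiring a 2-fold change as well left 14 of the 33 upward calls against naive cells of experiment 1 and 0 of the 11 downward ones, 1 of 3 upward calls in experiment 2, 0 of 2 calls between the experiments on day 4, 2 of 7 genes differing among days in N2B27 and 1 of 3 in mTeSR, 0 of 1 interactions, 1 of 13 calls between media and 5 of 21 between days. Naive libraries of experiment 1, chosen for experiment 2 after seeing the data, gave 6 upward and 4 downward calls in place of 3 and 9. CDKN1A and GDF15 against naive cells are values with no test, and their sign turned with the naive libraries. With those of both experiments pooled, CDKN1A was at -1.02, -0.45 and -0.16 in N2B27 on days 2, 3 and 4, at -0.888, -0.0954 and -0.0998 in E8 and at -0.0887 on day 4 in mTeSR, GDF15 on day 4 at -0.80, -0.74 and -0.84 in N2B27, E8 and mTeSR and at -0.13 on day 8 in mTeSR, and CDKN1A in experiment 2 at 0.78 in N2B27, 0.67 in XAV and 0.47 in FAX. With Geltrex alone, CDKN1A on day 2 was at -0.23 in N2B27 and -0.0939 in E8, and GDF15 on day 4 at -0.0439 in N2B27 and -0.0874 in mTeSR. With naive cells of experiment 1, GDF15 in experiment 2 was at 0.71 in N2B27, 0.28 in XAV and 0.49 in FAX and CDKN1A at 1.98, 1.87 and 1.67. CDKN1A on day 2 ran from -0.00384 to 0.33 in N2B27 and from -0.0136 to 0.58 in E8 with 1 library left out. DESeq2 called 5 genes among days in N2B27. With no filter, 2 interactions passed, GDF15 and BBC3. The compared libraries alone gave 3 calls between the media of experiment 2, where the fit over all libraries gave 0. Naive cells on serum gave a naive difference of 2.77 for CDKN1A and 2.13 for GDF15. BAX on day 3 in N2B27 ran from -0.25 without replicate 1 of that day to 1.22 without replicate 2. The cause of these changes was not tested.

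Leaving out 1 library gave 26 to 34 upward and 10 to 12 downward calls against naive cells in experiment 1, 3 to 3 and 9 to 9 in experiment 2, 0 to 0 between coatings, 0 to 1 between the experiments on day 4, 6 to 8, 5 to 7 and 3 to 3 genes among days in N2B27, E8 and mTeSR, 1 to 3 interactions, 10 to 15 calls between media in experiment 1 and 0 to 0 in experiment 2, and 17 to 23 between days. The naive difference ran from 1.70 to 2.18 for CDKN1A and from 1.49 to 1.96 for GDF15. Same-numbered replicates did not deviate together (correlations from -0.35 to 0.258, 7 of 171 pairs of groups over 0.1), so the numbers were not taken as pairs. With a replicate block, 0 of the 110 calls changed, and the counts stayed at 33, 11, 3, 9, 7, 7, 3, 1, 13, 0 and 21. FAS and TP53I3 had the fewest counts of the 10 genes. In the simulation 1.5-fold changes were recovered less often than 2-fold ones, and the part of depth was not tested.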
